A study of Homo sapiens with 6 samples.

Results

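The genes described here are the core regulators of the G1 phase of the cell cycle, namely the D-type cyclins CCND1, CCND2 and CCND3, their kinases CDK4 and CDK6, the CDK inhibitors CDKN1A, CDKN1B, CDKN2A and CDKN2B, and RB1. They were taken by name as 10 of the 21462 rows of a table of RNA-seq read counts, and the list was drawn up because CCND2 was strongly higher in cells without Desmoglein-2 (Dsg2). The difference between the cell lines is therefore a description for these genes, given with its error and without a p-value. The counts come from control A431 cells (A431CT, genotype WT) and A431 Dsg2 knockout cells (Dsg2KO, genotype DSG2 KO), with 3 libraries each. A431 is a human keratinocyte line from an epidermoid carcinoma, and the knockout was made by CRISPR/Cas9 editing. All cells were grown in serum-containing medium with no drug or siRNA. Each genotype is represented by a single line, and whether the knockout line is 1 clone is not given in the sources used here. The study's methods describe its replicates as independent or biological, the labels do not say how the 3 libraries of a line were separated, and p-values measure the spread between these libraries.

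D-type cyclins are made in response to growth factors and to attachment of cells to matrix. They bind CDK4 or CDK6, and the complexes phosphorylate the retinoblastoma protein RB1, which otherwise holds E2F transcription factors inactive and so blocks entry into S phase. The INK4 inhibitors p16 (from CDKN2A) and p15 (from CDKN2B) bind CDK4 and CDK6 directly, whereas p21 (from CDKN1A) and p27 (from CDKN1B) act on cyclin-CDK complexes, above all those of CDK2. In keratinocytes these genes set the balance between proliferation and withdrawal from the cycle.

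The libraries held between 12845719 and 16255692 counts. Levels are given as CPM, counts scaled to library size with edgeR's TMM factors, and differences as log2 fold changes of Dsg2KO over A431CT from edgeR's quasi-likelihood fit to the 12857 genes that passed its filter on low counts (SE, standard error). DSG2 itself had between 4112 and 4344 counts in A431CT libraries and between 758 and 902 in Dsg2KO libraries, or -2.64 on the log2 scale (adjusted p = 1.29e-14, edgeR's quasi-likelihood test with Benjamini-Hochberg adjustment). Of 10 keratinocyte markers, 9 were above 3 counts in every library and KRT14 was at 0 to 2 counts. The summed keratinocyte markers ranged from 11084 to 11811 CPM in A431CT cells and from 11817 to 12179 in Dsg2KO cells, of which EGFR alone made up 8446 and 9128 CPM on average. KRT6A fell past both thresholds given below (log2 fold change -1.03), and SFN at -0.46 and KRT5 at -0.13 fell past the adjusted p-value alone, whereas CDH1 at 0.28, DSP at 0.18 and EGFR at 0.11 rose past it. Markers of other cell types were low, with sums of 2.01 to 3.17 and 1.79 to 3.82 CPM for 6 fibroblast genes, 8.52 to 11.5 and 15.0 to 15.6 for 4 endothelial genes (CDH5 and PECAM1 rose past both thresholds), and 3.02 to 4.49 and 3.42 to 3.85 for 4 melanocyte genes. Of the immune markers, CD68, a lysosomal protein, was at 236 to 240 CPM in A431CT and 148 to 161 CPM in Dsg2KO cells and fell past both thresholds (log2 fold change -0.62), while CD3E was at 0 and PTPRC had 2 to 8 counts. COL1A2 and MLANA were also at 0, and the part of these markers in the values below was not tested.

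Among these G1 regulators, CCND2 differed most between the lines, with a level in Dsg2KO cells 3.23 times that in A431CT cells. CCND1, the most abundant of the genes, was higher by a factor of 1.32. CDKN1B and RB1 were lower, at 0.860 and 0.825 of the A431CT level. CCND3, CDK4 and CDK6 stood at 1.02, 1.07 and 0.980 times their A431CT level, and CDKN2A and CDKN2B were listed at 0 in every library. Of the 8 genes that passed the count filter, each with at least 52 counts in every library, 1 (CCND2) passed an adjusted p-value of 0.05 together with an absolute log2 fold change of 0.5, against 6.03% of all genes tested. With the adjusted p-value alone the number was 4 (CCND1 and CCND2 higher, CDKN1B and RB1 lower), against 29.6% of all genes. The same 4 genes had libraries that did not overlap between the lines, against 42.6% of all genes (21.2% with all Dsg2KO libraries higher and 21.4% with all lower). The list was chosen on this contrast, so nothing is read from these shares.

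**Figure D1:**
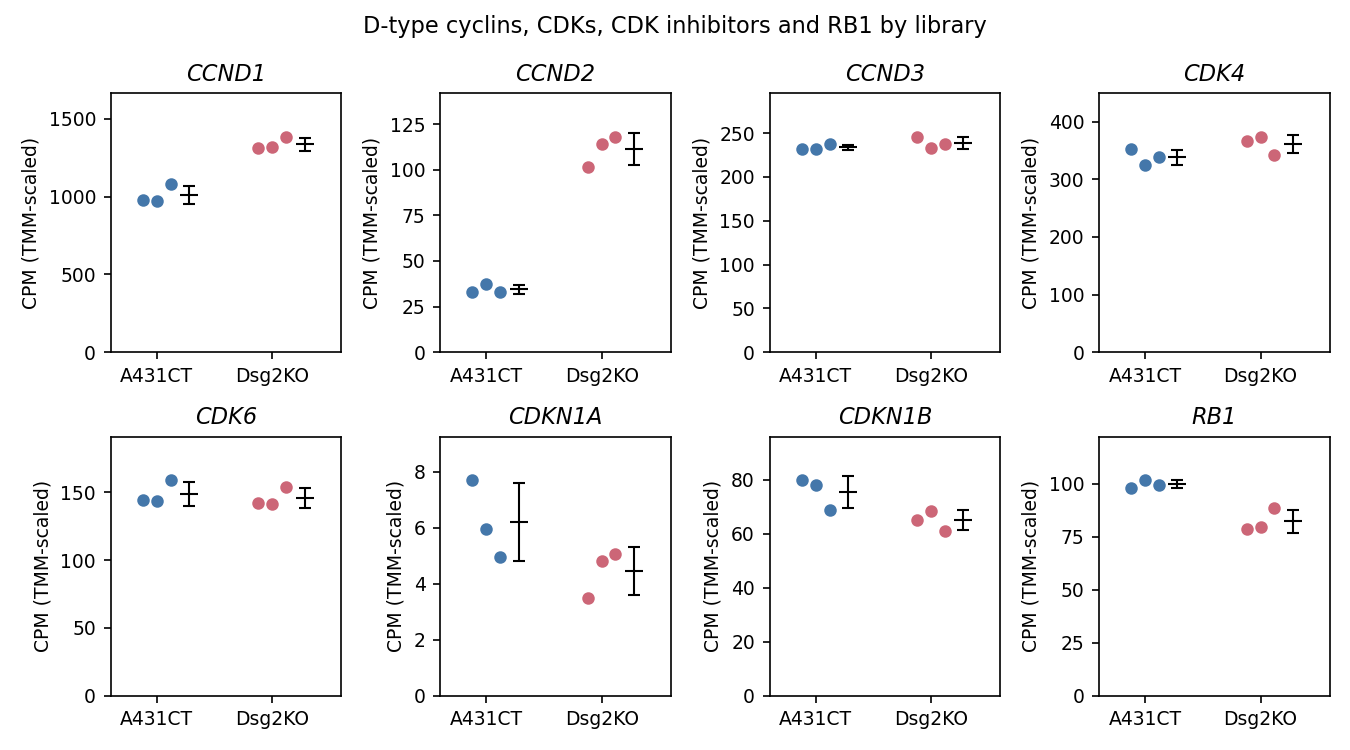
Each panel plots the level of a gene in TMM-scaled CPM (vertical axes, from 0) in the 3 A431CT (blue) and 3 Dsg2KO (red) libraries, with the mean and SD beside them in black. CCND2 stands at 33.0 to 37.1 CPM in A431CT and 101 to 118 in Dsg2KO libraries, whereas the libraries of CCND3, CDK4, CDK6 and CDKN1A overlap between the lines.

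CCND2, on chromosome 12 of GRCh38 from 4269771 to 4305353, encodes cyclin D2, the D-type cyclin known for its role in lymphoid, gonadal and neural cells. It was counted 423, 504 and 426 times in the A431CT libraries and 1510, 1871 and 1913 times in the Dsg2KO libraries. These counts correspond to 33.2, 37.1 and 33.0 CPM in A431CT cells and 101, 114 and 118 CPM in Dsg2KO cells. The lowest Dsg2KO library lay 64.1 CPM above the highest A431CT library. The mean was 34.5 ± 2.32 CPM (SD, n = 3) in A431CT and 111 ± 8.88 CPM (SD, n = 3) in Dsg2KO cells. The log2 fold change was 1.69 (SE 0.07, 95% interval 1.55 to 1.84), the 38th highest of the 12857 genes tested. Replicates varied by 6.73% in A431CT and 7.98% in Dsg2KO cells, where counting error alone gives 4.71% and 2.38%. In bulk RNA, more cells that express CCND2 and more CCND2 RNA per cell cannot be told apart. The antisense gene CCND2-AS1 and an unnamed coding gene on the same strand (ENSG00000285901) overlap CCND2 in GENCODE and have no row under those names in the count table, so reads of theirs may have been counted on CCND2.

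CCND1, on chromosome 11 from 69641156 to 69654474, encodes cyclin D1, the main D-type cyclin of epithelial cells. Its level was 979, 972 and 1080 CPM in A431CT libraries and 1309, 1318 and 1385 CPM in Dsg2KO libraries. All 3 Dsg2KO libraries were thus higher than all A431CT libraries, by at least 229.7 CPM. The log2 fold change was 0.40 (SE 0.04, 95% interval 0.32 to 0.49). LTO1, which overlaps the end of CCND1 on the opposite strand, rose as well, by 0.20 on the log2 scale (SE 0.05, adjusted p = 0.0036, edgeR's quasi-likelihood test), at 1332 to 1458 counts in A431CT and 1816 to 2066 in Dsg2KO libraries. Whether counting used strand is not given in the sources used here, so reads of such overlapping genes cannot be assigned with certainty.

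CCND3, on chromosome 6 from 41934934 to 42050357, encodes cyclin D3, which is associated with differentiating and lymphoid cells. Its level was 232, 232 and 238 CPM in A431CT libraries and 246, 233 and 237 CPM in Dsg2KO libraries. The groups overlapped, and the log2 fold change was 0.03 (SE 0.04) and an interval from -0.05 to 0.11. CCND3 had the tightest A431CT replicates of the 8 genes, varying by 1.29%, so a difference as large as that of CCND1 lay outside its interval.

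Summed over the 3 cyclins, the level was 1244, 1242 and 1350 CPM in A431CT libraries and 1657, 1665 and 1741 CPM in Dsg2KO libraries. The mean difference was 409 CPM, of which CCND1 made up 80.1%, CCND2 18.8% and CCND3 1.15%. The gene with the largest fold change was thus not the one with the most added reads. CCND2 made up 2.67%, 2.99% and 2.44% of D-type cyclin counts in the A431CT libraries and 6.11%, 6.87% and 6.79% in the Dsg2KO libraries. The exact (Clopper-Pearson) 95% binomial intervals of these shares, which cover counting error only, ran from 2.22% to 3.26% over the A431CT libraries and from 5.82% to 7.17% over the Dsg2KO libraries. The CCND3 share was 18.3% ± 0.632 (SD, n = 3) in A431CT and 14.2% ± 0.629 in Dsg2KO cells. CCND1 kept nearly the same share, 79.0% ± 0.874 and 79.3% ± 0.286. There were 29.4 CCND1 counts for each CCND2 count in A431CT cells and 12.1 in Dsg2KO cells (SD 3.26 and 0.761, n = 3 each).

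**Figure D2:**
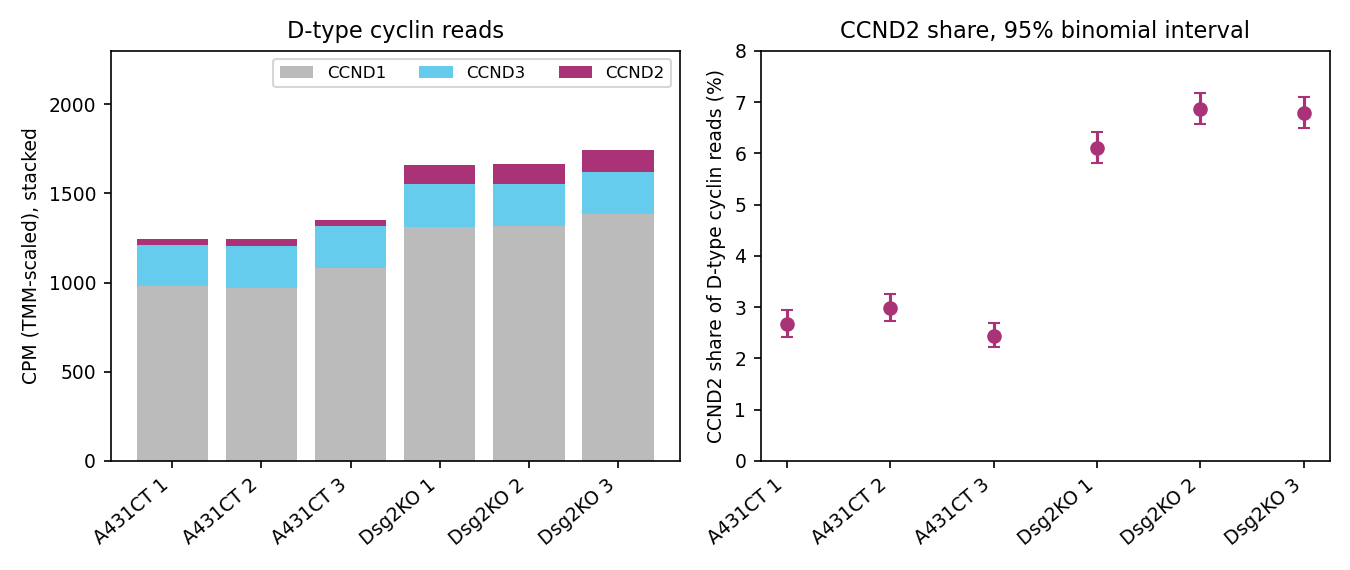
Left, stacked TMM-scaled CPM of CCND1 (grey), CCND3 (light blue) and CCND2 (purple) in each of the 6 libraries, on an axis from 0. Right, the share of D-type cyclin counts that fell on CCND2, in percent, with 95% binomial intervals as bars; the A431CT shares lie between 2.44% and 2.99% and the Dsg2KO shares between 6.11% and 6.87%.

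CDK4 and CDK6, the kinases that D-type cyclins activate, differed little between the lines. CDK4, on chromosome 12 from 57747727 to 57756013, was at 352, 325 and 338 CPM in A431CT libraries and 367, 374 and 343 CPM in Dsg2KO libraries. Of these Dsg2KO libraries, 2 lay above all A431CT libraries and the third between them, and the log2 fold change was 0.09 (SE 0.04, 95% interval 0.0035 to 0.18). CDK4 is overlapped on the opposite strand by TSPAN31 and MARCHF9. Their log2 fold changes were 0.04 (adjusted p = 0.73) and 0.32 (adjusted p = 0.0082, both from edgeR's quasi-likelihood test). CDK6, on chromosome 7 from 92604921 to 92836573, was at 144, 144 and 159 CPM in A431CT libraries and 142, 142 and 154 CPM in Dsg2KO libraries. Its groups overlapped, and the log2 fold change was -0.03 (SE 0.05) and an interval from -0.14 to 0.08. The means were 149 ± 8.79 CPM (SD, n = 3) and 146 ± 7.15 CPM, and those of CDK4 were 338 ± 13.1 and 361 ± 16.4 CPM.

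Both inhibitors of the CIP/KIP type had lower means in Dsg2KO cells, and their precision differed widely. CDKN1B, on chromosome 12 from 12685498 to 12722369, encodes p27, which restrains CDK2 and is removed as cells enter S phase. It was at 79.9, 78.0 and 69.0 CPM in A431CT libraries and 65.3, 68.5 and 61.2 CPM in Dsg2KO libraries. The groups did not overlap, but the gap between them was only 0.425 CPM, less than the SD within either line (5.85 and 3.69 CPM). The log2 fold change was -0.22 (SE 0.06, 95% interval -0.35 to -0.08). GPR19, which overlaps it on the opposite strand, had 69 to 93 counts per library and a log2 fold change of -0.34 (adjusted p = 0.19, edgeR's quasi-likelihood test).

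CDKN1A, on chromosome 6 from 36676460 to 36687337, encodes p21, a target of p53 that also responds to TGF-β. It was the least abundant of the genes with counts, at 98, 81 and 64 counts in A431CT libraries and 52, 79 and 82 in Dsg2KO libraries. In CPM these were 7.70, 5.97 and 4.96 against 3.49, 4.83 and 5.07. The highest Dsg2KO library lay above the lowest A431CT library, so the groups overlapped. The log2 fold change was -0.47 with an SE of 0.21, the widest of the 8 genes, and its interval ran from -0.92 to -0.02. Its replicates varied by 22.3% and 19.1%, against a counting error of 11.1% and 11.9%. Without A431CT replicate 1, the highest library, the log2 fold change was -0.29, and without Dsg2KO replicate 1, the lowest, it was -0.32.

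The INK4 genes CDKN2A and CDKN2B, which neighbour each other on chromosome 9 (from 21967752 to 21995301 and from 22002903 to 22009305), were listed with 0 counts in all 6 libraries. A count of 0 allows up to 3 counts, or 0.183 to 0.236 CPM per library, by counting error alone. MTAP, the next gene on the same chromosome, had 2157 to 2559 counts in A431CT and 2540 to 2848 in Dsg2KO libraries. DMRTA1, on the other side of CDKN2B, had 18 to 42 counts. A listed 0 is not certain to mean absent RNA, since OIP5, which acts at centromeres of dividing cells, and NTAN1, a broadly used amidase, were also listed at 0 in all libraries. These examples were chosen after their values were seen, and both overlap coding genes on the opposite strand (NUSAP1 and PDXDC1). Among all 21462 genes, 3992 had no count in any library. Whether reads of CDKN2A or CDKN2B were lost in counting was not tested. CDKN2A and CDKN2B lie within an annotated non-coding gene on the opposite strand (ENSG00000264545) that begins at the first base of MTAP. No fold change can be given for them.

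RB1, on chromosome 13 from 48303744 to 48599436, encodes the protein that cyclin D complexes inactivate. It was at 98.3, 102 and 99.4 CPM in A431CT libraries and 78.9, 79.7 and 88.5 CPM in Dsg2KO libraries. All Dsg2KO libraries were lower, by at least 9.79 CPM, and the log2 fold change was -0.28 (SE 0.05, 95% interval -0.39 to -0.17). RCBTB2 and LPAR6, which lie within RB1 on the opposite strand, were listed at 0 in every library, and whether reads of theirs were counted on RB1 was not tested.

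Per kb of exon (the union of a gene's annotated exons), the order of levels in A431CT cells was CCND1 at 212 ± 12.6 CPM per kb (SD, n = 3), CDK4 at 109 ± 4.24, CCND3 at 40.6 ± 0.524, RB1 at 15.5 ± 0.279, CDK6 at 12.2 ± 0.719, CDKN1B at 8.17 ± 0.632, CCND2 at 4.31 ± 0.290 and CDKN1A at 2.07 ± 0.463. No neighbours in this order overlapped between libraries. In Dsg2KO cells CCND2 stood above RB1, CDK6 and CDKN1B, at 13.9 ± 1.11 CPM per kb. There it overlapped RB1 at 12.8 ± 0.832, which in turn overlapped CDK6 at 11.9 ± 0.584. The rest of the order was the same, with CCND1 at 281 ± 8.74, CDK4 at 117 ± 5.29, CCND3 at 41.4 ± 1.17, CDKN1B at 7.02 ± 0.399 and CDKN1A at 1.49 ± 0.284 CPM per kb. Divided by the longest transcript in place of the union of exons, CDKN1B came before CDK6 in both lines, at 17.4 against 12.8 CPM per kb in A431CT cells. With that length CCND2 came after RB1 in Dsg2KO cells, at 16.2 against 17.3 CPM per kb, so their order there depends on the gene length. The summed D-type cyclins were at 257 ± 13.0 CPM per kb in A431CT and 336 ± 9.25 in Dsg2KO cells. The kinases CDK4 and CDK6 together were at 121 ± 4.31 and 129 ± 4.72 CPM per kb. The ratio of these sums was 1.99, 2.13 and 2.23 in A431CT libraries and 2.54, 2.50 and 2.81 in Dsg2KO libraries, without overlap. Against the summed inhibitors CDKN1A and CDKN1B, the cyclin ratio was 25.4 ± 3.99 in A431CT and 39.6 ± 2.57 in Dsg2KO cells. These are ratios of RNA levels, and protein was not part of the counts. Their size depends on the gene length used. The cyclin sums hold CCND2, whose rise chose the list, so nothing is read from the lack of overlap.

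Because neighbouring genes can differ together between lines, each gene was set beside the tested genes that start within 2 Mb of it. Over all 12857 genes tested, 6545 were lower in Dsg2KO cells and 6312 were higher. The 16 neighbours of CCND2 had a median log2 fold change of 0.06, which left 1.63 of the 1.69 of CCND2. The genes on either side of it were PARP11, at 0.06 (adjusted p = 0.49), and TIGAR, a regulator of glycolysis, at 0.26 (adjusted p = 0.0122, both from edgeR's quasi-likelihood test). The 24 neighbours of CCND1 had a median of 0.07, which left 0.34 of its 0.40. RB1 differed in this respect. Of its 19 neighbours, 17 were lower in Dsg2KO cells, and their median of -0.27 left -0.0050 of the -0.28 of RB1. Within 1 Mb all 6 neighbours were lower, with a median of -0.30, and within 5 Mb 40 of 45 were lower, with a median of -0.24. The medians around CDKN1B (19 genes) and CDKN1A (33 genes) were -0.02 and -0.01, which left -0.20 and -0.46. The medians around CCND3, CDK4 and CDK6 were -0.0077, 0.000013 and 0.03.

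**Figure D3:**
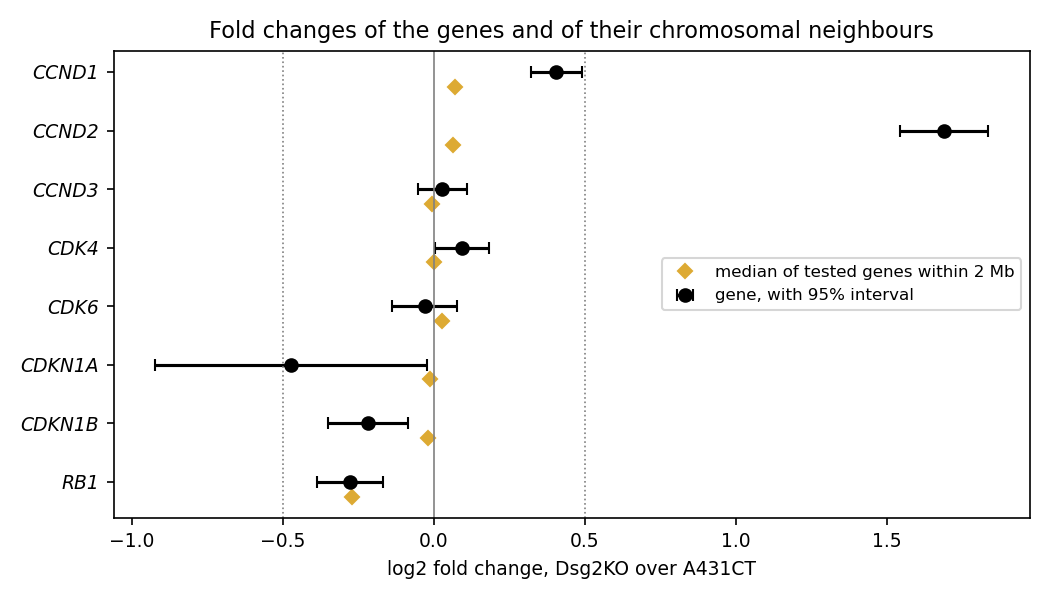
Log2 fold changes of Dsg2KO over A431CT (horizontal axis) for the 8 genes with counts, as black points with 95% intervals, and the median of the tested genes within 2 Mb of each as yellow diamonds drawn just below. Dotted lines mark log2 fold changes of -0.5 and 0.5; CCND2 at 1.69 is the one point beyond them, and RB1 at -0.28 lies beside its neighbours' median of -0.27.

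Outside these genes, a list of 35 further G1/S regulators had 34 tested members, with a median log2 fold change of 0.02 beside a median of -0.0048 over all genes tested. Past both thresholds there was 1 gene, CCNE1, and it rose, against 2.99% of all genes higher and 3.03% lower. CCNE1 encodes cyclin E1, the partner of CDK2 that acts after the D-type cyclins, and it had 76, 85 and 89 counts in A431CT libraries and 159, 160 and 172 in Dsg2KO libraries. The difference on the log2 scale was 0.70 (SE 0.14, adjusted p = 0.0013, edgeR's quasi-likelihood test). All 3 Dsg2KO libraries lay above all A431CT libraries. With the adjusted p-value alone, 4 genes of the list rose and 5 fell, against 14.3% and 15.3% of all genes. CCNE2, which encodes the other E-type cyclin, fell with a log2 fold change of -0.19 (adjusted p = 0.0499, edgeR), just under the threshold. SKP2, the ubiquitin ligase subunit that targets p27 for destruction, rose by 0.19 (adjusted p = 0.0029), and GSK3B, a kinase that marks cyclin D1 for export and destruction, rose by 0.19 (adjusted p = 0.0050, edgeR). FBXO31, an F-box protein that targets cyclin D1, was the other higher gene, at 0.33 (adjusted p = 0.0326, edgeR). Its libraries overlapped between the lines, at 18.0 to 25.1 CPM in A431CT and 24.8 to 29.8 CPM in Dsg2KO cells.

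Among relatives of RB1 and its targets, the pocket protein gene RBL1 fell by 0.30 (adjusted p = 6.72e-04, edgeR) and E2F2 fell by 0.40 on the log2 scale (adjusted p = 4.74e-05, edgeR). The E2F partner TFDP2 fell by 0.19 (adjusted p = 0.0048, edgeR). These were the 3 of 12 tested pocket protein and E2F genes past the adjusted p-value alone, against 15.3% of all genes lower. Of the 12, 4 were higher and 8 lower, with a median of -0.07. CDKN2C, the INK4 gene for p18, fell by 0.17 (adjusted p = 0.0209, edgeR). CDKN2C had 1290 to 1479 counts per library, so that an INK4 gene was well counted in these cells beside the listed 0 of CDKN2A and CDKN2B. CDKN2D, another INK4 gene, had 121 to 149 counts per library and a log2 fold change of -0.35 (adjusted p = 0.071, edgeR). CDKN1C, the third CIP/KIP gene, had 0 to 2 counts and was not tested. None of the 9 list genes past the adjusted p-value, other than CCNE1, reached a log2 fold change of 0.5 in size.

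Genes of later cell cycle steps were described by the same counts. In a list of 24 E2F-driven S-phase genes, 0 passed both thresholds in edgeR and 0 in DESeq2, while 10 had an unadjusted p-value under 0.05 in edgeR, against 39.5% of all genes. With the adjusted p-value alone, 4 rose and 3 fell, against 14.3% and 15.3% of all genes, and the median log2 fold change was 0.01. GINS2, a replication factor, was the highest, with a log2 fold change of 0.48 (adjusted p = 9.03e-06, edgeR), and ORC1, an origin-binding protein, the lowest, with -0.30 (adjusted p = 9.40e-04, edgeR). In a list of 15 mitotic genes, 0 passed both thresholds in edgeR and 0 in DESeq2, 6 had an unadjusted p-value under 0.05, against the same 39.5%, and the median was -0.04. With the adjusted p-value alone, 1 rose and 4 fell in edgeR, against 14.3% and 15.3% of all genes, while DESeq2 had 3 genes past it in all. CDC20 was the lowest, at -0.44 (adjusted p = 1.16e-06, edgeR). Of 19 tested p53 target genes other than CDKN1A, 1 passed both thresholds, against 6.03% of all genes, the antiproliferative gene BTG2, which rose by 0.55 on the log2 scale (SE 0.12, adjusted p = 0.0031, edgeR). All 3 Dsg2KO libraries lay above all A431CT libraries. With Dsg2KO replicate 2 left out the BTG2 value was 0.46, under the minimum. The median of the p53 list was 0.01, and with the adjusted p-value alone 4 of its genes rose and 2 fell, against 14.3% and 15.3% of all genes. Of its 19 tested genes, 11 had an unadjusted p-value under 0.05 in edgeR, against 39.5% of all genes.

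Several of these list genes had neighbours that differed in the same direction. Over the tested genes within 2 Mb, the median on the log2 scale was -0.28 around E2F2 (35 of 38 lower), -0.32 around CDC20 (46 of 49 lower), -0.25 around ORC1 (29 of 33 lower) and -0.19 around RBL1 (37 of 43 lower). The 25 neighbours of GINS2 had a median of 0.25 (21 higher) and the 26 of FBXO31 a median of 0.24 (24 higher). The medians were -0.19 around CDKN2C and 0.14 around SKP2, near those genes' own values. Around CCNE1 (5 genes) and BTG2 (35 genes) they were 0.01 and 0.10, which left 0.68 and 0.45 of their differences. TFDP2, GSK3B and CCNE2 also differed from their neighbours. The medians around them were -0.01, 0.0021 and -0.04, beside own values of -0.19, 0.19 and -0.19.

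**Figure D4:**
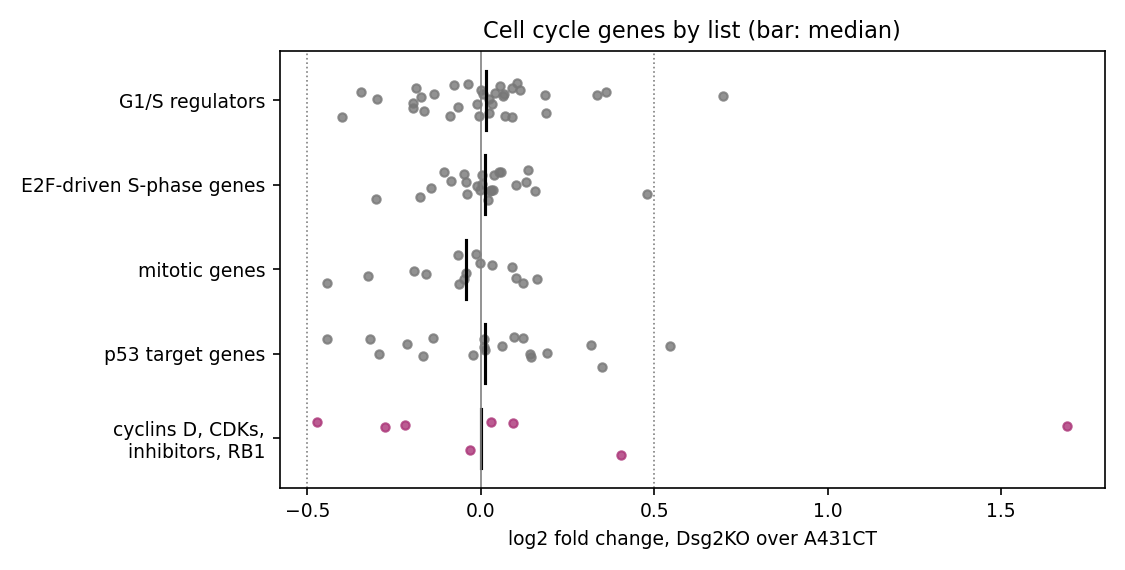
Log2 fold changes of Dsg2KO over A431CT (horizontal axis) for every tested gene of 4 cell cycle lists (grey) and for the D-type cyclins, CDKs, inhibitors and RB1 (purple), 1 point per gene with vertical scatter for legibility; black bars mark medians and dotted lines -0.5 and 0.5. The list medians lie between -0.04 and 0.02, and CCND2 at 1.69 is the highest point, followed by CCNE1 at 0.70.

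The 3 genes whose log2 CPM followed CCND2 most closely over the 6 libraries were FANCA (repair of DNA crosslinks), TPP1 (a lysosomal peptidase) and CTTNBP2NL, each with a Pearson r of 0.998 or higher. Their own log2 fold changes were smaller, at 0.37, 0.35 and 0.34. The libraries form separate groups by line, so this likeness is a description of these 6 libraries.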

How the data were processed

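Read counts of A431CT and Dsg2KO cells (3 libraries each) were analysed. In CLC Genomics Workbench (version 23) the authors trimmed the reads, mapped them to GRCh38 and summed them by gene, and the deposited values are whole-number counts per gene symbol without normalization. The annotation and the strand setting are not given in the sources used here. Counts were analysed with R 4.3.3 and edgeR 4.0.16 (TMM factors, filterByExpr with a minimum count of 10, quasi-likelihood F test without covariates, Benjamini-Hochberg adjustment over the 12857 genes tested). Genes were called at an adjusted p under 0.05 when they differed by at least 0.5 on the log2 scale. Log2 CPM took a prior count of 2. Standard errors are the log2 coefficient divided by the square root of the F statistic, and intervals use the test's degrees of freedom. The common biological coefficient of variation was 4.79%. No replicates were alike within sampling noise: the chi-square between them was 2.66 to 4.20 per degree of freedom.

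Genes were placed with GENCODE 44 on GRCh38, which matched 19478 of 21462 symbols on the same chromosome. The study named the same build. The genes and lists were chosen with earlier results of these data known. Named are the 10 genes of the list, DSG2, up to 6 genes per direction from each list past both thresholds, genes that overlap a member, MTAP, the neighbours of CCND2, the 3 genes most like CCND2, and markers. OIP5, NTAN1, DMRTA1, RCBTB2, LPAR6 and list genes past the adjusted p-value alone or at a list's limits were named after their values were seen, as were CDKN1C and CDKN2D. The alternatives were RLE factors, library totals, other count filters, DESeq2 1.42.0, the likelihood ratio test, other fold change minimums, a replicate block, each library left out, other windows and other gene lengths. The fit was tested on simulated data. Figures used matplotlib 3.10.9. The value of 1 immune marker is not reported here.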

Additional observations from a re-analysis of the deposited data

How the results depend on the processing

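The log2 fold changes of the 8 genes moved by less than the SD between replicates, pooled over both lines on the log2 scale, under every scaling, filter and test tried. The value of CCND3 was 0.05 with library totals alone. With each library left out in turn they stayed between 1.65 and 1.75 for CCND2, 0.38 and 0.46 for CCND1, 0.0082 and 0.05 for CCND3, 0.07 and 0.13 for CDK4, -0.61 and -0.29 for CDKN1A, -0.28 and -0.18 for CDKN1B, and -0.33 and -0.25 for RB1, while CDK6, between -0.07 and 0.02, changed sign. The fold change minimum moved the counts of calls, by its own construction. Without it 3802 genes passed in the whole table, 9 of the further G1/S regulators, 7 S-phase, 5 mitotic and 6 p53 target genes. With a minimum of 1 the numbers were 250 in the whole table and 0 for the G1/S regulators and the p53 targets. All genes past both thresholds numbered 775, from 659 (DESeq2) to 916 (no low-count filter) under the other settings and from 686 to 795 with a library left out. S-phase genes numbered 0 to 1 and p53 targets 0 to 1 with a library left out. The S-phase gene was GINS2, at 0.52 without Dsg2KO replicate 3 and at 0.50 with library totals alone, where 1 gene passed. The G1/S regulators stayed at 1 and the mitotic genes at 0. A replicate block gave 769 genes in the whole table, 1 G1/S regulator and a log2 fold change of 1.69 for CCND2, and it changed no other count of list genes past both thresholds; same-numbered libraries did not deviate together (correlations from -0.0027 to 0.05), so they were not treated as pairs. With a window of 5 Mb the neighbours of CCND1 had a median of -0.0050, which left 0.41. With 1 Mb their median was 0.11, which left 0.29. Per kb of exon the CCND2 share of D-type cyclins was 1.68% in A431CT and 4.14% in Dsg2KO cells. Levels per kb depend on the gene length used. CDKN1A, at 52 to 98 counts, is the gene whose depth limits precision most.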
